A study of Mus musculus with 28 samples.

Results

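The comparison asked whether Gfi1, Pou4f3 and Atoh1 induced together changed each gene by more or by less than the sum of what the factors did alone. It used 16 of the 28 libraries of the series, chosen by line: iGPA, which carries all 3 factors in 1 doxycycline (Dox) inducible cassette, and iAtoh1, iGfi1 and iPou4f3, which carry 1 factor each. All lines derive from the A2loxCre mouse embryonic stem cell line, and the cassettes end in mVenus, a fluorescent reporter. Cells were grown as embryoid bodies (EBs, floating aggregates in which embryonic stem cells differentiate into a mixture of early cell types) to day 6. Dox libraries came from mVenus+ cells sorted after 48 h in 2 µg/ml Dox, and No Dox libraries from whole untreated EBs of the same line, with 2 libraries per group made from different clones. Dox treatment and sorting therefore cannot be told apart within a line.

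Atoh1, Gfi1 and Pou4f3 are transcription factors that act in the hair cells (HCs) of the inner ear. Atoh1 is a basic helix-loop-helix (bHLH) activator that starts HC formation and also drives several neuronal lineages. Gfi1 is a zinc finger repressor needed for HC survival and known for its roles in blood formation. Pou4f3 is a POU homeodomain factor needed for HC maturation. Factors that bind the same regulatory regions can act on a gene more strongly together than their separate effects would add up to, and a repressor can hold back what an activator does alone.

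The Dox effect of a line is the mean of its 2 Dox libraries minus the mean of its 2 No Dox libraries on the log2(normalized count + 1) scale, which understates changes of genes with few reads. The deviation from the sum is the Dox effect of iGPA minus the 3 single Dox effects added together. It is 0 when effects multiply on the count scale. A term common to every Dox library, whether from Dox, sorting or the cassette, enters iGPA once and the sum 3 times, so it appears in the deviation. It cancels when iGPA is set against 1 single line at a time, and that comparison is given beside the first. Estimated depth was 35.3 to 48.0 M reads per library, and 17721 to 18061 genes had a value above 0. Of 19421 genes, 16837 passed the filter on low values, and the median standard error (SE) was 0.369 for the deviation and 0.184 for a Dox effect in 1 line.

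The induced genes matched the line labels. Atoh1 was at 76.1 and 39.2 normalized counts in iAtoh1 without Dox and at 18996 and 21242 with Dox, and at 16728 and 19107 in iGPA with Dox, 89.1% of the iAtoh1 level. Gfi1 reached 10801 and 9778 in iGfi1 and 8119 and 9464 in iGPA (85.4%). Pou4f3 did not match in the same way: it reached 4694 and 5381 in iPou4f3 and 13037 and 15115 in iGPA, 279% of the single-line level. All 3 lay below their sum, at −3.69 for Atoh1, −2.06 for Gfi1 and −5.10 for Pou4f3, and the sums held effects in lines that lack the transgene, such as 2.04 for Atoh1 in iGfi1, 1.55 for Gfi1 in iPou4f3 and 2.21 for Pou4f3 in iAtoh1. With all 14 untreated libraries as one control group these deviations were 0.07, −1.35 and −1.59, and none was called. Reads of a transgene and of its endogenous gene are counted together. In iGPA cells Pou4f3 was therefore present at a higher level than in the line it was compared with, and the part of this dose in the deviations below was not tested.

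In iGPA 341 genes were above the sum (2.03% of those tested) and 106 below it (0.63%), by limma at a Benjamini-Hochberg adjusted p under 0.05 and a deviation of at least 1.5 on the log2 scale. The calls were thus 76.3% upward. The split moved with the reference used, and was 304 above and 180 below (62.8% upward) when all 14 untreated libraries of the series served as one control group, and 280 and 169 (62.4% upward) after quantile normalization. With a term for each pair of equally numbered libraries of a line (the replicate block), 550 genes were above and 164 below, and these held 337 of the 341 and 100 of the 106. At an unadjusted p under 0.05 there were 1825 above and 1275 below. Of the 16 libraries, leaving out the second iGPA library without Dox lowered the counts most, to 205 above and 59 below. Without the first or the second iGfi1 library without Dox 223 and 222 genes were above, and the second also left 66 below, as did the first iPou4f3 library with Dox at 68. The median size was 2.89 for genes above and −2.81 for genes below. On the scale of normalized counts, where increments rather than logs were added, all 341 stayed above the sum and 103 of the 106 below it. The 3 that turned were Pou4f3, Stra6 and Asic4, which rose in iGPA and in at least 1 single line.

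**Figure D1:**
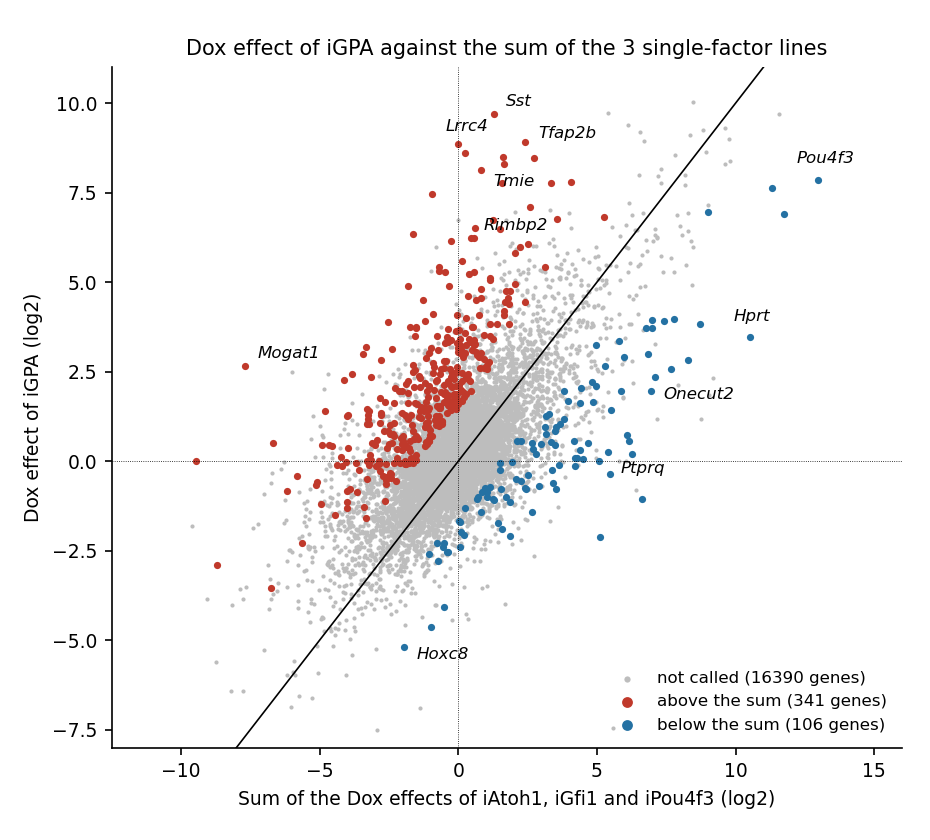
Dox effect of iGPA (vertical axis, log2) against the sum of the Dox effects of iAtoh1, iGfi1 and iPou4f3 (horizontal axis, log2) for 16837 genes. The line marks equality. The 341 genes above the sum lie to its upper left and the 106 below it to its lower right, with Hprt 7.07 below and Lrrc4 8.86 above.

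The most frequent class among genes above the sum rose in iGPA with no single line past the threshold. This class held 161 of the 341 (47.2%), with a median Dox effect of 2.76 in iGPA and of −0.26 in iAtoh1, 0.09 in iGfi1 and −0.11 in iPou4f3. A further 24 rose in iGPA and in at least 1 single line, and 13 rose in iGPA although a single line lowered them. The other classes held no rise in iGPA. In 51 genes a single line lowered the gene and iGPA did not change it past the threshold, with a median Dox effect of 0.04 in iGPA. In 87 genes neither iGPA nor a single line passed, and 5 fell in iGPA as well as in a single line. All 3 single effects were negative in 118 of the 341 (34.6%), against 14.5% of all genes tested, a share that follows in part from how the deviation is built.

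Genes below the sum were mostly genes that single lines raised. A single line raised the gene and iGPA did not in 39 of the 106 (36.8%), and both raised it in 28 (26.4%). In 13 the gene fell in iGPA with no single line called, in 4 it fell in both, and 21 had no call in either. One gene, Srgap3, rose in iAtoh1 (1.65) and fell in iGPA (−2.06). All 3 single effects were positive in 57 of the 106 (53.8%), against 13.7% of all genes tested, which again follows in part from how the deviation is built.

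**Figure D2:**
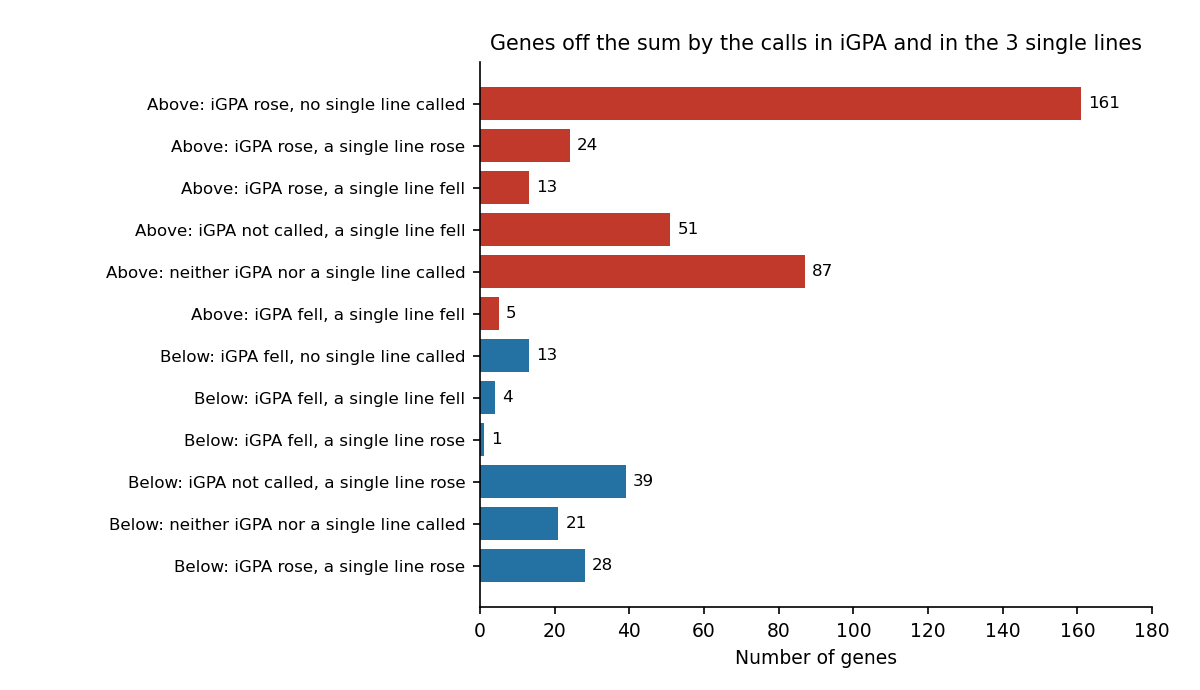
Number of genes (horizontal axis) above the sum (red) and below the sum (blue) by whether the gene passed the threshold in iGPA and in the single lines. A gene that rose in 1 single line and fell in another is counted with those that rose when iGPA was called upward. The largest classes are, above the sum, the 161 genes that rose in iGPA with no single line called, the 87 with no call in either and the 51 that a single line lowered, and, below it, the 39 that a single line raised and iGPA did not.

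Most of the 10 genes furthest above the sum had levels near 0 in all 3 single lines. Lrrc4, a postsynaptic adhesion protein, was listed at 0 in all 12 single-line libraries and in both untreated iGPA libraries, and at 489.9 and 439 in iGPA with Dox. Ecel1, a membrane metallopeptidase of neurons, lay between 3.02 and 10.3 in the single lines and at 902 and 883 in iGPA with Dox. Both genes separated iGPA with Dox from every other library of the 4 lines. The deviations were 8.86 ± 0.75 (SE, adjusted p = 4.36e-06, limma) for Lrrc4 and 8.41 ± 0.96 (adjusted p = 1.02e-04, limma) for Ecel1. Lrrc4 lies inside Snd1 on the opposite strand, and the counting did not use strand (kallisto at default settings), so reads from sequence shared by transcripts of the 2 genes cannot be told apart. For genes listed at 0 the size of the deviation depends on the 1 count added before taking logs.

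Tmie encodes a transmembrane protein of the mechanotransduction complex at the tips of stereocilia. Its values in the single lines ran from 4.83 to 27.4, and in iGPA it went from 3.5 and 1.97 without Dox to 975 and 1086 with it. The Dox effects were −0.52 in iAtoh1, −0.06 in iGfi1, 1.40 in iPou4f3 and 8.14 in iGPA, and the deviation was 7.32 ± 0.88 (adjusted p = 1.66e-04, limma). Tmie overlaps Als2cl on the other strand.

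Promoter windows of these 3 genes are shown because they had the lowest adjusted p of the 10 genes furthest above the sum. Each window runs from 250 bases before to 50 after the start of the gene in RefSeq, build GRCm38.p6, read along the strand of the gene, all on the minus strand. Capitals mark matches, on either strand, to CAGCTG and CAGATG (E-boxes, the type of site that bHLH factors such as Atoh1 bind), AATCAC (the core of Gfi1 sites) and ATTAAT (found in POU4 sites). AATCAC and ATTAAT can overlap in AAT. The windows are at chr6:28831698-28831997 for Lrrc4, chr1:87156307-87156606 for Ecel1 and chr9:110880024-110880323 for Tmie.
Lrrc4: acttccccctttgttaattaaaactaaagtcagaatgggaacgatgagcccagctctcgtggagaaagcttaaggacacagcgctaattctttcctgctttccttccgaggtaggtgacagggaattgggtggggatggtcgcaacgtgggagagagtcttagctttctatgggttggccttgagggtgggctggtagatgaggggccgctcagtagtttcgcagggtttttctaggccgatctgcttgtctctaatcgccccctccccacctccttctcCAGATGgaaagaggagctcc
Ecel1: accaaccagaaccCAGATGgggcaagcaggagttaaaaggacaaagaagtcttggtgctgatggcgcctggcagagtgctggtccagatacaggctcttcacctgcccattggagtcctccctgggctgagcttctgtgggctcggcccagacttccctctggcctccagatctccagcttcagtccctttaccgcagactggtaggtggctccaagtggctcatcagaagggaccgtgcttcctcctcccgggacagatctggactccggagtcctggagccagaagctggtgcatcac
Tmie: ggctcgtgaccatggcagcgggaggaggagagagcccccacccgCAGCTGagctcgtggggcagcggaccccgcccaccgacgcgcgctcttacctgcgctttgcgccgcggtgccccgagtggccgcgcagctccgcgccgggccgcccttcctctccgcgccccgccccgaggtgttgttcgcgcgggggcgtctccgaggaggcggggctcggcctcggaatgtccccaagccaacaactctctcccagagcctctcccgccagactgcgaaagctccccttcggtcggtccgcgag
The windows of Lrrc4 and Ecel1 each hold 1 CAGATG and that of Tmie 1 CAGCTG, and none of the 3 holds AATCAC or ATTAAT. Windows were matched for 275 of the 341 genes above the sum, 77 of the 106 below and 13126 of all genes tested. At least 1 of the 2 E-boxes was in 32.1% of 377 windows above, 31.6% of 95 below and 26.9% of 16562 in all. AATCAC was in 7.43%, 10.5% and 8.71%, and ATTAAT in 2.65%, 3.16% and 2.54%. A match is a string in the sequence and not a bound site.

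**Figure D3:**
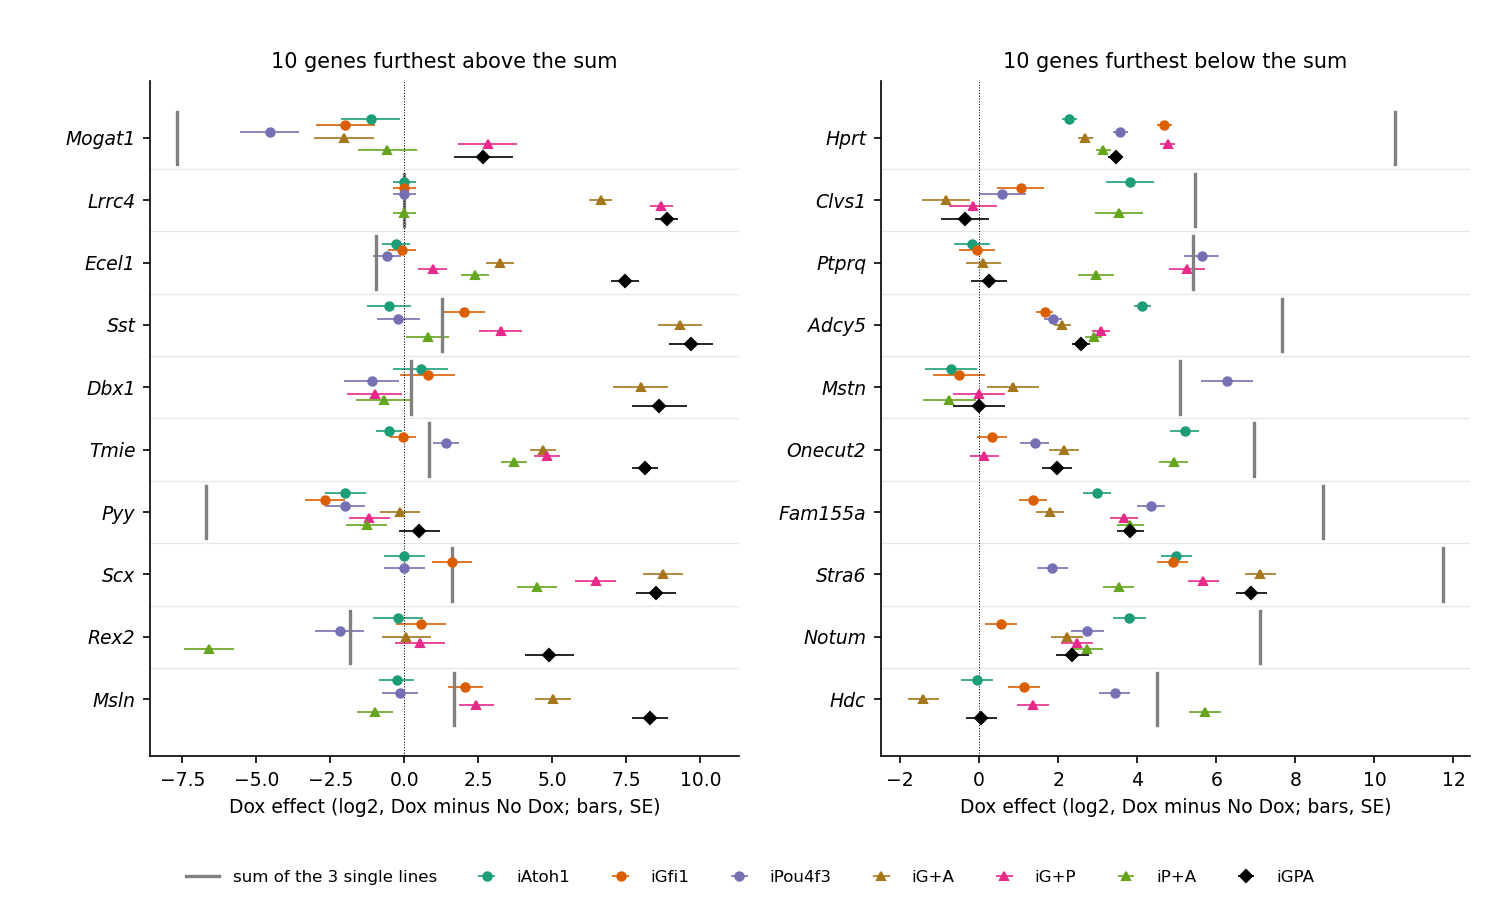
Dox effect (horizontal axis, log2, bars are SE from limma) of the 10 named genes furthest above the sum (left) and below it (right), transgenes left out, in each of the 7 lines. Circles are single-factor lines, triangles 2-factor lines and the black diamond iGPA, and the grey bar is the sum of the 3 single lines. For Lrrc4, Ecel1, Sst, Tmie, Scx, Dbx1 and Msln the diamond lies right of the bar and above 7, and for Hprt and Adcy5 it lies among the single lines.

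Sst, the peptide hormone somatostatin, had the highest level of the 10. It stayed at or under 12.3 in every single-line library and reached 4774 and 4949.8 in iGPA with Dox (deviation 8.40 ± 1.47, adjusted p = 0.00386, limma). In iG+A, the line with Gfi1 and Atoh1, it reached 1826 and 2079, and in iP+A, the line with Pou4f3 and Atoh1, only 9.03 and 5.74. Dbx1, a homeodomain factor of spinal and hindbrain progenitors, was likewise high in iGPA and iG+A, at 335 and 455 in iGPA and 892 and 764 in iG+A, against 0 to 20.1 in the single-line libraries with Dox. Scx, a bHLH factor of tendon progenitors, was listed at 0 in 11 of the 12 single-line libraries, at 8.24 in the other, and at 333 and 393 in iGPA and 465 and 393 in iG+A with Dox, but it overlaps Bop1 on the other strand. Msln, the surface protein mesothelin, was at 451 and 411 in iGPA with Dox and at or under 6.19 in the single lines. The deviations were 8.37 for Dbx1, 6.90 for Scx and 6.64 for Msln, and the 4 genes kept their calls without any 1 library.

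Other genes of the 10 rested on falls in the single lines or on untreated libraries that differed. Mogat1, an acyltransferase of fat synthesis, had the largest deviation (10.35 ± 2.00, adjusted p = 0.00742, limma). It was at 564 and 543 in iPou4f3 without Dox but at 29.5 and 16.8 in iGPA without Dox, and its iGPA Dox libraries were at 43.2 and 493. Pyy, a gut peptide hormone, had Dox effects of −1.99, −2.69 and −2.00 in iAtoh1, iGfi1 and iPou4f3, and was at 50.7 and 67.3 in iGPA with Dox against 60.2 and 27.5 without. Rex2, a zinc finger gene of a family with near-identical copies, was listed at 0 in both iGPA libraries without Dox and at 109.6 and 7.07 with it. With all 14 untreated libraries as one control group the deviation of Mogat1 was 6.21 (adjusted p = 0.0976, limma) and that of Rex2 −1.29 (adjusted p = 0.884, limma).

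In 24 genes above the sum a single line also raised the gene, and iGPA raised it further than the lines together. Rimbp2, which links calcium channels to synaptic vesicles at HC and photoreceptor ribbon synapses, was one of them. Without Dox it lay between 55.2 and 288 in the 4 lines. With Dox it was at 96.4 and 76.8 in iAtoh1, 146 and 77.9 in iGfi1, 476 and 504 in iPou4f3, and 6191 and 5168 in iGPA. It thus fell in iAtoh1 (−1.59), rose in iPou4f3 (2.41) and rose most in iGPA (6.22), with a deviation of 5.67 ± 0.86 (adjusted p = 0.00155, limma). Tfap2b, a factor of neural crest and neural tube, showed the same directions, with effects of −2.35 in iAtoh1, 4.66 in iPou4f3 and 8.92 in iGPA, although it was no longer called with one control group (3.89, adjusted p = 0.159, limma).

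**Figure D4:**
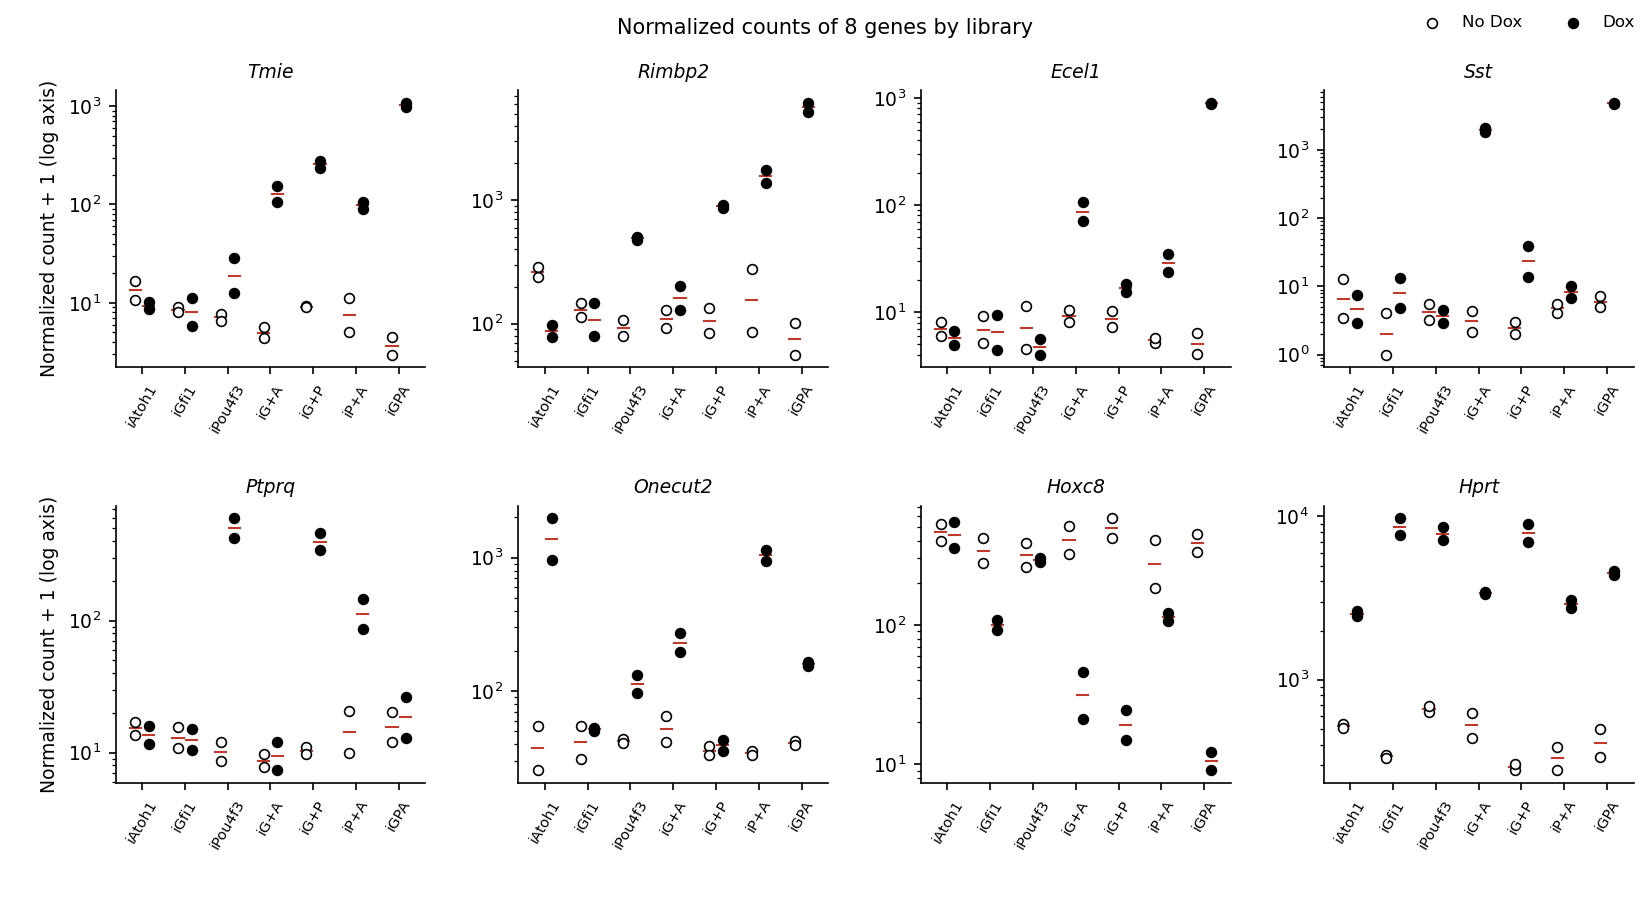
Normalized count + 1 (vertical axes, log scale) of 8 genes in every library of the 7 lines, without Dox (open) and with Dox (filled), with red bars at the mean of the log values. Tmie, Rimbp2, Ecel1 and Sst are highest in iGPA with Dox, Ptprq and Onecut2 rise in a single line and stay near or under 163 in iGPA, Hoxc8 is lowest in iGPA with Dox, and Hprt rises in all 7 lines.

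Many HC genes rose in iGPA, and fewer were called off their sum. Of 34 genes of the hair bundle and mechanotransduction that were tested, 17 rose in iGPA and none fell (8.65% of all genes rose and 5.31% fell). In the single lines 1 rose in iAtoh1 (2.89% of all genes rose and 2.52% fell), 2 in iGfi1 (2.15% and 2.67%) and 8 in iPou4f3 (1.47% and 0.606%), and none fell. In iG+P 17 of the 34 rose as well (5.16% of all genes), with a median of 1.53. The median effect was 1.42 in iGPA against a median sum of 0.73. Above the sum were 3 of the 34 (2.03% of all genes), Tmie, Eps8l2 and Twf2, and 1, Ptprq, was below (0.63%). Eps8l2 and Twf2 regulate actin at stereocilia tips. Eps8l2 was at 1073 and 1302 in iGPA with Dox and at 115 to 420 in the single lines with Dox (deviation 3.82). In the 2-factor lines with Dox it was at 978 and 936 in iG+P, 610.3 and 542 in iP+A and 212 and 135 in iG+A. Twf2 was at 4861 and 4592, against 1876 and 1738 in iPou4f3, 999 and 1100.1 in iGfi1 and 851 and 802 in iAtoh1 (deviation 1.95 ± 0.22, adjusted p = 8.84e-05, limma). Twf2 was also at 4876 and 4693 in iG+P, the line with Gfi1 and Pou4f3. Compared with each single line in turn, 7 of the 34 were higher in iGPA (2.52% of all genes), Espn, Tmie and Eps8l2 among them.

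Ptprq (chr10:106954416-107157083 in NCBIM37), a phosphatase of the stereocilia base, went the other way. It was at 11 and 7.62 in iPou4f3 without Dox and at 595 and 423 with it, while in iGPA it was at 11.1 and 19.2 without Dox and at 12 and 25.6 with it. The Dox effects were −0.18 in iAtoh1, −0.05 in iGfi1, 5.63 in iPou4f3 and 0.25 in iGPA, and the deviation was −5.15 ± 0.89 (adjusted p = 0.00377, limma). Among the 2-factor lines Ptprq reached 345 and 457 in iG+P and 85.7 and 144 in iP+A, and 11 and 6.33 in iG+A. The 2 lines in which Pou4f3 and Atoh1 were both induced thus had lower Ptprq than iPou4f3 and iG+P.

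Of 19 tested genes for HC synapses, channels and calcium buffers, 7 rose in iGPA (8.65% of all genes) and 1, Rimbp2, was above the sum (2.03% of all genes). Of 20 HC transcription factors and cofactors, 11 rose in iGPA, 7 in iAtoh1, 1 in iGfi1 and 3 in iPou4f3 (8.65%, 2.89%, 2.15% and 1.47% of all genes), and 12 in iG+A (7.35%). Their median deviation was −0.03, with 9 of 20 positive, 2 called above the sum (2.03% of all genes) and 1 below (0.63%). Lhx3, a LIM homeodomain factor of HCs and motor neurons, was at or under 9.14 in the single lines and at 337 and 497 in iGPA with Dox (deviation 6.18 ± 1.55, adjusted p = 0.0307, limma). Isl1, a related factor of HC and sensory neuron development, was at 7397 and 7381 in iGPA with Dox, and the highest single-line value was 1377 in iAtoh1 (deviation 3.84 ± 0.89, adjusted p = 0.0208, limma). These 2 calls were less stable: 10 of the 16 fits that left out 1 library lost that of Lhx3 and 6 that of Isl1, with deviations from 5.13 to 7.24 and from 3.31 to 4.38. With one control group Isl1 was at 2.41 (adjusted p = 0.0891, limma). Hes6, a Hes family inhibitor and a known Atoh1 target, was below the sum (−1.70 ± 0.40, adjusted p = 0.0214, limma). It rose by 3.74 in iAtoh1 and 3.25 in iGPA, to 5809 and 6639 against 4094 and 3439.6. Its call was lost in 6 of the 16 fits.

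Of the 6 markers that the study used for HCs, Lhx3 was called off the sum and the other 5 were not. Otof, the calcium sensor of ribbon synapses, reached 231 and 414 in iPou4f3 and 293 and 240.3 in iGPA with Dox, with a deviation of −0.24 ± 0.96. Espn, the actin bundler espin, was at 2033 and 1951 in iGPA with Dox against 191 to 909 in the single lines (2.31 ± 0.71, adjusted p = 0.0754, limma; 0.0232 with the replicate block). In the 2-factor lines with Dox it was at 1816 and 2067 in iG+A, 2332 and 1421 in iG+P and 915 and 841 in iP+A. Myo6, an unconventional myosin, was at 9698 and 9360 against 2105 to 4494 in the single lines with Dox (1.30 ± 0.39, adjusted p = 0.0709, limma). Myo7a deviated by 0.43 ± 0.25. With Dox it was at 2810.1 and 3785 in iGPA, 5459 and 5504 in iG+A, 2017 and 2048 in iG+P and 1823 and 1969 in iP+A. Cdh23, a tip link cadherin, varied between untreated clones more than with Dox, from 10367 to 59297 without Dox, and its deviation was 0.12 ± 1.15. Cdh23, Eps8l2, Clvs1, Stra6 and Cldn3 also overlap a gene on the other strand (Vsir, B230206H07Rik, Asph, Ccdc33 and Wbscr25), with the same limit as for Lrrc4.

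Of 39 general neuronal genes, 21 rose in iGPA and 1 fell, with 8 raised in iAtoh1, 1 in iGfi1 and 5 in iPou4f3 (of all genes 8.65% rose in iGPA, 2.89% in iAtoh1, 2.15% in iGfi1 and 1.47% in iPou4f3). In iP+A 27 of the 39 rose (4.70% of all genes), with a median of 2.93 against 1.69 in iGPA. Of the 39 deviations 27 were positive, with a median of 1.00 (0.01 over all genes) and 15 above against 2 below at an unadjusted p under 0.05. By the adjusted p 1 gene was above the sum (2.03% of all genes) and 1 below (0.63%). Above each single line were 12 (2.52% of all genes), Dcx, Map2, Stmn3, Nefl and Nefm among them. Mapt, the axonal protein tau, was above (2.15 ± 0.43, adjusted p = 0.00911, limma). It was at 129.9 and 167 in iPou4f3, 214 and 171 in iAtoh1, 466 and 437 in iGfi1 and at 691 and 723 in iGPA with Dox. In the 2-factor lines with Dox Mapt was at 777 and 869 in iG+A, 162 and 179 in iG+P and 346 and 272 in iP+A. Tubb3, a neuronal tubulin, was below (−2.65 ± 0.72, adjusted p = 0.0454, limma), and every fit without 1 library lost the call. Tubb3 reached 1142 and 870.2 in iAtoh1, 278 and 222 in iGPA, 37.2 and 91.5 in iG+A and 9649 and 7735 in iP+A with Dox. Dcx, a microtubule protein of young neurons, deviated by 0.03 ± 0.89. Barhl2, a homeodomain factor, was at 97.8 and 36.9 in iAtoh1, 38.3 and 31.3 in iPou4f3 and 21.5 and 5.05 in iGPA (−6.89 ± 2.16, adjusted p = 0.0832, limma). It was called in 3 alternatives, with one control group (−6.81, adjusted p = 0.0165, limma), with only the 16 libraries and with a pseudocount of 5.

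Of 29 sensory neuron genes 14 rose in iGPA (8.65% of all genes), and Isl1 and Piezo2 were above the sum (2.03% of all genes). Piezo2, a mechanically gated channel, was at 1774 and 2039 in iGPA with Dox and at 332 to 968 in the single lines with Dox (2.57 ± 0.52, adjusted p = 0.00951, limma). Of 12 tested proneural bHLH genes 6 rose in iAtoh1 (2.89% of all genes) and 6 in iGPA, none was called off the sum, and 2 of the 12 had a positive deviation (median −0.32). Notch pathway genes gave 12 rises in iAtoh1 and 14 in iGPA of 27 (2.89% and 8.65% of all genes), and Hes6 was the one off the sum.

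The gene furthest below the sum was Hprt (chrX:50341314-50374836 in NCBIM37, the build of mm9), an enzyme of purine salvage and the locus into which A2loxCre cassettes are inserted. It lay between 330.1 and 686 without Dox and at 2617 and 2454 in iAtoh1, 9733 and 7743 in iGfi1, 7154 and 8564 in iPou4f3 and 4619 and 4385 in iGPA with Dox. It rose in every line, by 2.28 to 4.68 in the single lines and by 3.46 in iGPA, and the deviation was −7.07 ± 0.38 (adjusted p = 4.90e-09, limma). A rise common to all Dox libraries enters the sum 3 times, and against the single lines in turn the Dox effect of iGPA differed by 1.18 from iAtoh1, −1.22 from iGfi1 and −0.11 from iPou4f3. In all, 13 genes rose in all 3 single lines and 4 of them were below the sum (Hprt, Adcy5, Stra6 and Htr1a), and 4 fell in all 3 single lines and 2 of them were above it (Rhox9 and Tfec).

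Adcy5, an adenylyl cyclase, was at 1505 and 1667 in iAtoh1, 311 and 351 in iGfi1, 370.1 and 400.5 in iPou4f3 and 741 and 532 in iGPA with Dox, from 83.2 to 121 without. Its iGPA level thus lay between those of the single lines (deviation −5.09 ± 0.44, adjusted p = 4.36e-06, limma). Stra6, the retinol transporter, rose in all 4 lines and was highest in iGPA, at 1719 and 1968 against 529.9 and 566 in iAtoh1 and 572 and 345 in iGfi1. It was below the sum on the log scale (−4.85) and above it by 829 normalized counts on the count scale.

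Several genes raised by 1 factor were not raised as far when the others were present. Onecut2, a cut homeodomain factor of neurons and liver, reached 1965 and 962 in iAtoh1 and 1143 and 947 in iP+A with Dox, but 194 and 272 in iG+A and 163 and 154 in iGPA (deviation −4.97 ± 0.74, adjusted p = 0.00141, limma). Clvs1, a lipid-binding protein of neurons, was at 260.1 and 218 in iAtoh1, 188 and 254 in iP+A, 9.81 and 4.69 in iG+A and 4.72 and 21.7 in iGPA (−5.82 ± 1.20, adjusted p = 0.0111, limma). Hdc, the histamine-forming decarboxylase, was at 363 and 474 in iPou4f3, 3490 and 3096 in iP+A, 61.8 and 72.6 in iG+P and 49.2 and 43.4 in iGPA (−4.44 ± 0.80, adjusted p = 0.00471, limma). In each of the 3 genes the lines that carry Gfi1 beside the raising factor were lower than those without it. Ptprq, raised in iPou4f3, went the other way in the 2-factor lines, with 345 and 457 in iG+P and 85.7 and 144 in iP+A. Of the 39 genes below the sum that a single line raised and iGPA did not, 27 rose in iP+A (4.70% of all genes), 5 in iG+A (7.35%) and 8 in iG+P (5.16%), and 21 rose in iP+A only. Of the single lines, iAtoh1 raised 22 of the 39, iPou4f3 19 and iGfi1 5. The iP+A line thus carries the raising factor of most of them, and its larger count follows in part from how the class was chosen. Notum, a secreted Wnt inhibitor, and Fam155a, a subunit of a sodium leak channel, were raised by more than 1 single line. Both rose in iAtoh1, in iPou4f3 and in iGPA and were 4.73 and 4.87 below the sum. A smaller rise in iGPA was not shown for them. The effect in iGPA minus that in iPou4f3 was −0.38 and −0.52 (adjusted p = 0.681 and 0.481, limma). Against iAtoh1 it was −1.43 and 0.84 (adjusted p = 0.0908 and 0.259, limma). Mstn, the muscle growth inhibitor myostatin, was at 156 and 121 in iPou4f3 with Dox and at or under 2.44 in all other libraries with Dox, but lost its call under 13 of the 16 fits without 1 library and with the replicate block (adjusted p = 0.0622, limma).

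Most Hox genes, which set position along the body axis, had a negative deviation, though few were called below the sum. Of 34 tested, 18 fell in iGPA and 1 rose, against 6 falls in iGfi1, none in iAtoh1 or iPou4f3, and 1 rise in iAtoh1 (of all genes 5.31% fell in iGPA and 2.67% in iGfi1). In iG+P 24 of the 34 fell (5.36% of all genes), with a median of −2.71. The median effect was −1.90 in iGPA and the median sum 0.07, 2 of the 34 deviations were positive (median −1.66), and 5 were past the threshold (0.63% of all genes), Hoxc6, Hoxc8, Hoxb8, Hoxd9 and Hoxd8. Hoxc8 was at 549 and 357 in iAtoh1, 90.9 and 107 in iGfi1, 299 and 281 in iPou4f3 and 11.2 and 8.07 in iGPA with Dox, from 259 to 530.3 without (deviation −3.24 ± 0.81, adjusted p = 0.0311, limma). Hoxc6 was at 19.5 and 11.3 in iGPA with Dox and at 74.0 to 667 in the single lines with Dox (−3.54 ± 0.54, adjusted p = 0.00166, limma). Both were also low in iG+P, at 23.6 and 14.1 for Hoxc8 and 12.6 and 13.8 for Hoxc6. Below each single line (0.41% of all genes) were 6, namely Hoxa10, Hoxa11, Hoxc6, Hoxc8, Hoxc9 and Hoxd9. Of the 16 fits without 1 library, 10 lost the call of Hoxc8, 8 that of Hoxb8 and 11 that of Hoxd9. The calls of Hoxb8 and Hoxd9 were also lost with one control group (−1.27 and −1.57), and Hoxb8 overlaps its neighbour Hoxb7 in the annotation.

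**Figure D5:**
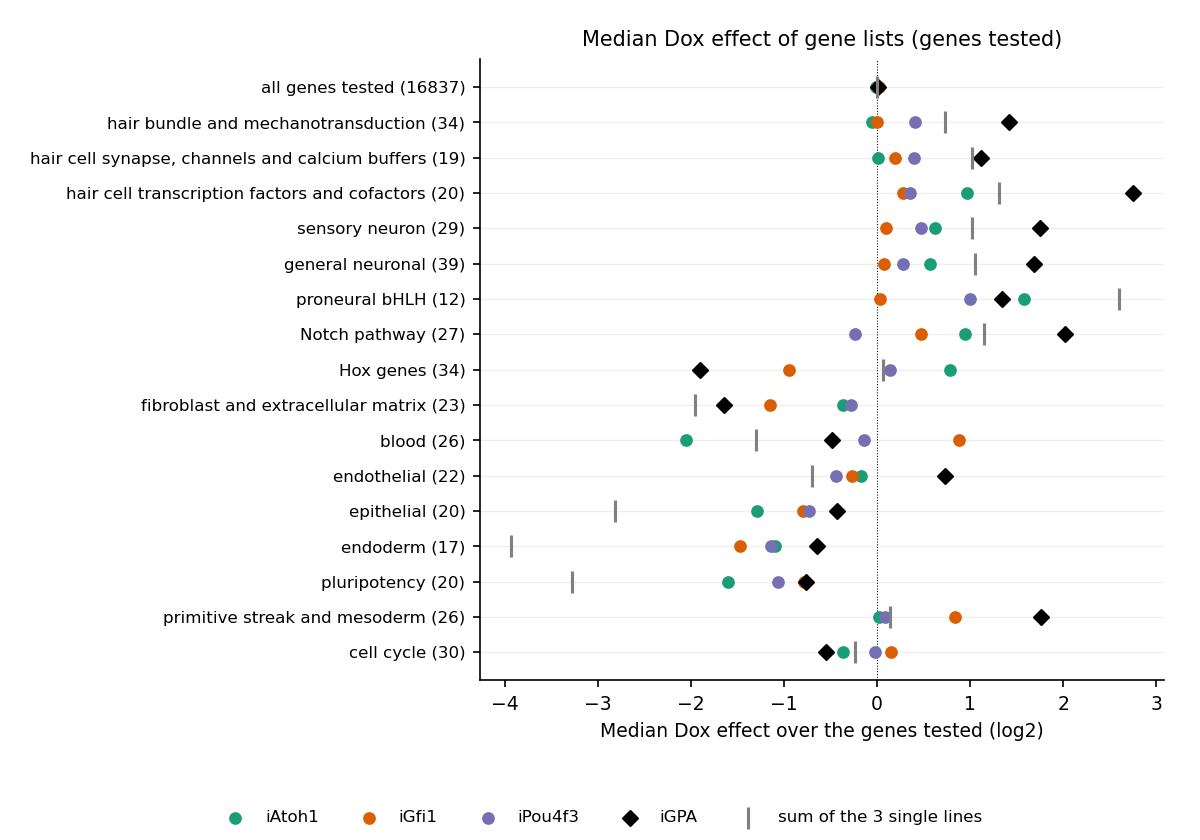
Median Dox effect (horizontal axis, log2) over the tested genes of each list in iAtoh1, iGfi1, iPou4f3 (circles) and iGPA (diamond), with the median of the gene-wise sum of the single lines (grey bar) and the number of genes tested in brackets. In the 3 HC lists the diamond lies right of the bar, although the gene-wise median deviation of HC transcription factors was −0.03. In Hox genes it lies at −1.90 with the bar at 0.07, and in endoderm and pluripotency the bar lies at −3.93 and −3.28 with the 4 lines between −0.64 and −1.60.

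Markers of other EB cell types were examined for the same contrast. In bulk libraries fewer cells of a type and less RNA per cell cannot be told apart. Pluripotency genes had negative medians in each line (−1.60 in iAtoh1, −0.78 in iGfi1, −1.06 in iPou4f3 and −0.76 in iGPA), with 3, 1, 0 and 6 of 20 past the threshold (2.52%, 2.67%, 0.606% and 5.31% of all genes fell). The median sum was −3.28, and 19 of 20 deviations were positive, with none past the threshold. The summed level of the list was 17137 to 48681 normalized counts without Dox in the 4 lines, 15200 and 16798 in iGPA with Dox, and 14771 to 33528 in the single lines with Dox, and 1 member was listed at 0 in both iGPA libraries with Dox. Endoderm genes gave the same picture, with 16 of 17 deviations positive, a median of 3.38 and none called. Of 20 epithelial genes all 20 were positive, with a median of 2.05, and 1 was above the sum, Cldn3, a tight junction protein (5.62 ± 1.15, adjusted p = 0.0110, limma). Within iGPA 3 of the 20 fell and 1, Cldn3, rose (5.31% and 8.65% of all genes), with a median effect of −0.43. The summed level of the list went from 35618 and 28735 to 9211 and 10219 in iGPA. With Dox Cldn3 was at 222 and 291 in iGPA and at 393 and 341 in iG+A. With one control group the deviation of Cldn3 was 3.65 (adjusted p = 0.0605, limma). Against each single line in turn the medians of these 3 lists ran from −0.46 to 0.83, highest for epithelial genes against iAtoh1 (0.83), and Cldn3 was above each. The part of these shared negative effects in other genes above the sum was not tested.

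Of 22 endothelial genes all 22 had a positive deviation (median 1.25) and 2 were above the sum (2.03% of all genes). Etv2, the factor that starts blood vessel formation, was at 1542 and 2457 in iGPA and 1464 and 3322 in iG+A with Dox, and at 135 to 438 in the single lines (deviation 3.24 ± 0.77, adjusted p = 0.0239, limma). Flt1, a receptor for vascular growth factor, deviated by 2.65 ± 0.63 (adjusted p = 0.0238, limma). The calls of both were lost in 6 of the 16 fits without 1 library. Of 26 blood genes 14 fell in iAtoh1 (2.52% of all genes) and 8 in iGPA (5.31%), 3 rose in iGfi1 (2.15%), and Fli1, an ETS factor of blood and vessel, was above the sum (1.62), but with one control group was at 1.25 (adjusted p = 0.131, limma), and 3 of the 16 fits without 1 library lost its call. The summed level of the blood list fell within iGPA from 298057 and 487964 to 52699 and 84990, and was 27060 and 30594 in iAtoh1 with Dox against 241567 to 430778 in the other single lines with Dox. Their part in other genes was not tested. Of 23 fibroblast and matrix genes 13 fell and 1 rose in iGPA (5.31% and 8.65% of all genes), 6 fell in iGfi1 (2.67%), and 4 fell and 2 rose in iAtoh1 (2.52% and 2.89%). In this list none was called off the sum, and Col1a1 and Col1a2 were below each single line (0.41% of all genes). None of 30 cell cycle genes was called in any of the 4 lines by limma, with a median effect of −0.55 in iGPA, and 4 of the 30 deviations were positive. Their summed level was 165913 and 190962 in iGPA with Dox and 198836 to 295112 in the other 14 libraries. Of the CDK inhibitors, Cdkn2b was above the sum (2.15 ± 0.52, adjusted p = 0.0252, limma), at 290.4 and 321 in iGPA with Dox and at 54.6 to 96.5 in the single lines with Dox, though 9 of the 16 fits without 1 library lost the call (deviations 1.80 to 2.50) and with one control group it was 0.80. Id4, an inhibitor of bHLH factors, was below (−1.68, adjusted p = 0.0490, limma), and kept its call in 3 of the 16 fits. None of 20 immediate early and stress genes was called off the sum.

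Where iGPA was set against each single line in turn, 425 genes (2.52%) were higher in iGPA than in all 3 and 69 (0.41%) lower. Of the 341 genes above the sum, 163 were among the 425, 78 were above 2 of the lines, 46 above 1 and 54 above none. Of the 106 below the sum, 9 were among the 69 and 41 were below none. These figures leave out any term common to the Dox libraries. Among the 161 genes that rose in iGPA with no single line called, 127 were above each single line, and among the 51 that a single line lowered and iGPA did not change, 1 was. These counts, and those for the 341 and the 106, follow in part from how the genes were chosen. The choice used the same iGPA and single-line libraries.

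The 2-factor lines had moved many of these genes already. Of the 161, 118 rose in at least 1 of iG+A, iG+P and iP+A, 69 of them in 1, 37 in 2 and 12 in all 3, and 43 rose in none. The most frequent was iG+A, with 89 of the 161 (7.35% of all genes rose and 4.95% fell in iG+A), then iG+P with 47 (5.16% and 5.36%) and iP+A with 43 (4.70% and 2.58%). Of the 161, 48 rose in iG+A only, against 11 in iG+P only and 10 in iP+A only. Over all genes, 336 genes were above and 168 below the sum of iGfi1 and iAtoh1 in iG+A (2.00% and 0.998%), 39 and 32 in iP+A (0.232% and 0.190%) and 20 and 15 in iG+P (0.119% and 0.0891%). In 19 of the 161 the Dox effect in iGPA was also above that in each 2-factor line, and those named here were chosen after their values were seen. The 161 were chosen for a rise in iGPA and the share over all genes was not computed, so the 19 cannot be read as many or few. Fcho1, an endocytosis protein, was at 6254 and 5720.5 in iGPA, 2888 and 2749.9 in iP+A, 1199 and 1269 in iG+P and 245 and 374 in iG+A with Dox. Elapor2, a membrane protein, was at 3202 and 2810.3 in iGPA and at 240 to 435 in the 2-factor lines. Efcab6, an EF-hand protein, was at 425 and 524 in iGPA, 109.9 and 60.6 in iG+P and 8.57 to 19.9 in the single lines with Dox. Ecel1, Tmie and Met, a growth factor receptor that went to 767 and 771, were also of the 19.

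A term for what the 3 factors did beyond all single and 2-factor lines was called in few genes. A term common to every Dox library does not cancel in it, but enters once. It is the Dox effect of iGPA minus the 3 pairs plus the 3 single lines, with a median SE of 0.49, and 3 genes were above and 2 below (0.0178% and 0.0119% of those tested, limma), against 1485 at an unadjusted p under 0.05. Hprt (3.39, in a gene that rose by 2.28 to 4.77 in all 7 lines), Qsox1, an enzyme that forms disulfide bonds (2.25), and Mical2, an actin-oxidizing enzyme (2.85), were above, and Lrrc4 (−6.45) and Twf2 (−1.83) below, each at an adjusted p of 0.021. Lrrc4 had already been at 77.7 and 123 in iG+A and 396 and 425 in iG+P, against 489.9 and 439 in iGPA. With the replicate block 15 genes were called, and 138 with all 14 untreated libraries as one control group. A gene without a call here was not shown to be free of a 3-factor effect.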

How the data were processed

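RNA-seq of poly(A)-selected RNA was made by the authors from 2 clones per group (HiSeq 4000). The authors trimmed the reads with cutadapt, assigned them to mm9 transcripts with kallisto at default settings, which do not use strand, summarized them with tximport and normalized them with DESeq2. Versions are not given in the sources used here. The deposited values are log2 of the normalized count + 1 for 19421 genes by the authors' scaling, and no column was left unmapped. In the 16 libraries 72.4 to 79.6% of low values lay within 0.05 normalized counts of a whole multiple of 1 read, too few to recover counts, so no count test was run. Symbols came from RefSeq for 19314 genes, and 107 stayed unnamed.

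All 28 libraries entered one limma fit (version 3.58.1, R 4.3.3) with 1 mean per line and treatment, a variance trend and 14 residual degrees of freedom. The fit took genes reaching 10 normalized counts in 2 or more libraries. Contrasts were Benjamini-Hochberg adjusted over all 16837, and a call needs an adjusted p under 0.05 and a size of 1.5 on the log2 scale. "Rose" and "fell" mean calls, and a gene above or below each single line is called against all 3. Figures were drawn with matplotlib 3.10.9, and promoter windows came from RefSeq (GRCm38.p6), another build than mm9.

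Replicates are clones of one line, so p-values measure the spread between clones. Equally numbered Dox and No Dox libraries deviated together (correlations 0.103 to 0.246 over the 7 lines), and with the series record giving replicates as different clones of a line, the numbers were taken as pairs, fitted as a replicate block in an alternative. Other alternatives changed the pseudocount, the filter, the scaling, the control libraries, the libraries fitted, the variance model, the size threshold, the genes tested, or left out 1 of the 16 libraries.

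Named genes were the transgenes, the 10 largest deviations in each direction, transgenes left out, with the same sign in both replicate numbers and a group mean of at least 100, the 3 largest per class, up to 4 called members per list, the HC and neuronal markers of the study and the 5 largest called in opposite directions. The contrast, its members and the gene lists were chosen with earlier results of these data known.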

Additional observations from a re-analysis of the deposited data

Results flagged for a closer look

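In 18 genes the Dox effects of iGPA and a single line were both past the threshold and opposite in sign, with 1 of them, Clec1b, opposite to 2 lines. These 19 pairs were picked for opposite calls, so a difference between the effects was fixed by the choice, and its adjusted p (limma, 1.1e-07 to 0.00298) is no independent support.

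Against iAtoh1, where 10 pairs were found, the gene fell in iAtoh1 and rose in iGPA in 9. The effect in iGPA minus that in iAtoh1 was 11.27 for Tfap2b, 7.81 for Rimbp2, 4.83 for Prss50, 4.77 for Cldn3, 4.19 for Mast1, 4.02 for Clec1b, 3.77 for Cracdl, 3.56 for Elf3 and 3.48 for Palm3. Srgap3, a regulator of the cytoskeleton, was the one gene that rose in iAtoh1 and fell in iGPA (−3.71). It went from 498 and 476 to 1297 and 1809 in iAtoh1 and from 436 and 606 to 109.6 and 137 in iGPA.

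Against iPou4f3 the differences were 7.21 for Mogat1, 5.43 for Ccdc88b, 5.04 for Atp12a, 4.96 for Lax1, 4.64 for Clec1b and 4.46 for Tshr. Against iGfi1 they were 6.63 for Fgfr4, 6.56 for Adcyap1 and 5.42 for Slco4a1. Each of these fell in the single line and rose in iGPA.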

How the results depend on the processing

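With all 14 untreated libraries as one control group, 180 genes were below the sum, 122 below each single line and 138 called for the three-way term (52 above, 86 below, an alternative for that term chosen after seeing the data), and the deviation turned for Atoh1 (0.07) and Rex2 (−1.29). Quantile normalization gave 169 below the sum and 111 below each single line, and lowered the median deviation over all genes to −0.077. The replicate block gave 550 above and 164 below the sum and 15 calls of the three-way term, as did a pseudocount of 5 for that term (15). A size of 1 gave 127 genes below each single line. Leaving out 1 of the 16 libraries gave 205 to 420 above and 59 to 100 below the sum, 330 to 430 above each single line and 41 to 84 below, with 41 without the second iGfi1 library with Dox. The three-way term was not refitted without single libraries. Of 61 called named genes 34 kept their call under every alternative and 27 lost it at least once, 21 of them when 1 library was left out. Among named genes the block ended the call of Mstn (adjusted p = 0.0622, limma), added Espn and changed no other call. The cause of these changes was not tested. With 2 clones per group the median SE of the deviation was 0.369, against 0.184 for 1 Dox effect.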
